A study of Mus musculus with 8 samples.

Results

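The 7 transcription factors *Klf2*, *Klf4*, *Klf5*, *Esrrb*, *Tfcp2l1*, *Tbx3* and *Zfp42* (also called *Rex1*), which belong to the naive state of mouse embryonic stem cells (ESCs), were followed through 2 differentiated cell states. They were chosen by name, out of 46078 gene identifiers in the count tables, and all 7 passed the filter on low counts (mean count above 10). RNA-seq had been performed on 8 libraries in 4 groups of 2. The tcESCs were XY ESCs that carry *tesco-cfp*, a reporter in which the *Sox9* enhancer TESCO drives cyan fluorescent protein (CFP). The tc;Sf1ESCs were 1 drug-selected clone of that line, expressing *Sf1* (*Nr5a1*) constitutively from a plasmid. Both ESC lines were kept in 2iLIF, a medium with leukaemia inhibitory factor (LIF), the MEK inhibitor PD0325901 and the GSK3 inhibitor CHIR99021. Sertoli cell-like cells (SCLCs) were CFP-positive cells sorted at day 12 from tc;Sf1ESCs that had been given CHIR99021 with a retinoic acid receptor agonist and then CHIR99021, BMP7 and FGF9, without LIF or PD0325901. The tod-PGCLCs were primordial germ cell-like cells sorted at day 6 from testicular organoids. They came from a different XY ESC line with *Prdm1-gfp*, through epiblast-like cells that were aggregated with testicular somatic cell-like cells made from tc;Sf1ESCs. The organoids were kept in medium with CHIR99021 and without added LIF, PD0325901 or growth factors. The reporter line differs from that of the other groups, so that cell line and cell state cannot be told apart in any comparison with the other groups. The study's text gives the second sorting marker of these cells, next to GFP, as SSEA1 in one place and as CD49f in another. SCLCs and tod-PGCLCs were dissociated with enzymes and sorted before RNA was taken, and no sorting is described for the ESCs. Dissociation and sorting therefore cannot be told apart from cell state in any comparison of these groups with ESCs.

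In the naive state, which resembles the epiblast before implantation, LIF acts through STAT3, GSK3 inhibition relieves repression by the β-catenin partner TCF7L1, and MEK inhibition blocks the FGF signal that drives cells out of the state. *Klf4* and *Tfcp2l1* are known STAT3 targets, *Esrrb* is a known target relieved from TCF7L1, and *Klf2* protein is known to be stabilised when MEK is inhibited. KLF2, KLF4 and KLF5 are zinc-finger proteins that share many binding sites in ESCs, ESRRB is an orphan nuclear receptor, TFCP2L1 is a grainyhead-like factor and TBX3 is a T-box factor. ZFP42 is a zinc-finger protein related to YY1 that is widely used as a marker of the naive state.

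Each library held between 25411033 and 30680191 counts assigned to genes, and 3 counts corresponded to 0.0978 to 0.118 CPM (counts scaled to library size). The 2 SCLC libraries differed from each other more than any other pair did, with an SD of log2 differences over genes of 0.518 against 0.310 to 0.378 in the other groups. Of 12 Sertoli cell markers 8 were tested and 6 called higher (over 2-fold at an adjusted p under 0.05) in SCLCs than in tc;Sf1ESCs, where 24.1% of all genes tested were called higher and 18.1% lower. The Sertoli cell markers summed to 543 and 559 CPM in the 2 SCLC libraries against 18.9 to 29.2 CPM in ESCs, with *Gata4* alone at 442 CPM on average. *Vnn1* stood at 53.7 CPM, *Dmrt1* at 25.5 CPM, *Nr5a1*, which the clone also carries on a plasmid, at 16.3 CPM and *Sox9* at 6.38 CPM. *Wt1* stood at 1.59 CPM, *Amh* at 0.592 CPM and *Dhh* at 0.116 CPM, and *Fshr* had 0 counts in both SCLC libraries. All 11 markers of extraembryonic endoderm were called higher in SCLCs than in tc;Sf1ESCs, with a summed level of 2832 and 4763 CPM in the 2 SCLC libraries against 14.8 to 18.9 CPM in the 4 ESC libraries. The mesenchyme markers summed to 1137 and 1228 CPM in SCLCs against 6.91 to 8.17 CPM in ESCs, with all 6 of those tested called higher. Of the trophectoderm markers 4 of 7 tested were called higher (820 and 1041 CPM summed, against 88.5 to 199 CPM in ESCs). Of the intermediate mesoderm markers 3 of 4 were called higher and 1 lower, at sums of only 9.53 and 10.1 CPM, and of the neural markers 4 of 5 were called lower and 1 higher. The markers of cells labelled SCLC were thus not those of Sertoli cells alone, and the part of other cell types in the results below was not tested. In tod-PGCLCs the germ cell determinants *Prdm1* and *Tfap2c* stood at 177 and 193 CPM, against 8.03 and 60.6 CPM in tcESCs, and 5 of 8 germ cell markers were called higher, while *Nanos3* stood at 2.99 CPM. Some markers of other cell types were also called higher in tod-PGCLCs than in tcESCs, where 18.1% of all genes were called higher and 11.2% lower. Of the extraembryonic endoderm markers 6 of 11 were called higher and 1 lower (34.5 and 47.5 CPM summed, against 18.6 and 18.9 CPM in tcESCs), and of the mesenchyme markers 4 of 6 were higher (55.4 and 56.2 CPM, against 6.91 and 7.22 CPM). Of the Sertoli cell markers 5 of 9 were higher (158 and 176 CPM, against 25.3 and 29.2 CPM), of which *Dmrt1*, a gene that germ cells express as well, made up 106 CPM and *Aard* 39.5 CPM on average, with *Wt1* at 11.0, *Gata4* at 4.21 and *Nr5a1* at 0.193 CPM and *Fshr* and *Cst9* at 0 counts in both libraries. The trophectoderm sums overlapped with those of tcESCs (3 of 7 higher and 1 lower), 3 of 5 intermediate mesoderm markers were higher and 1 lower, and 2 of 5 neural markers were lower and 1 higher. The part of such cells in the tod-PGCLC values was not tested. Since the libraries are bulk samples, fewer cells expressing a gene and less RNA per cell cannot be told apart.

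The 7 genes lie on 6 chromosomes of GRCm38: *Klf2* (chr8:72319033-72321656), *Klf4* (chr4:55527143-55532466), *Klf5* (chr14:99298691-99315036), *Esrrb* (chr12:86361117-86521628), *Tfcp2l1* (chr1:118627945-118685168), *Tbx3* (chr5:119670669-119684724) and *Zfp42* (chr8:43295063-43306980). RefSeq promoter windows (GRCm38.p6, 250 bases before to 50 bases after the start site) were at hand for 5 of the 7, and *Klf5* and *Tbx3* had none. Short stretches upstream of the start are shown for these 5 because they carry letters of motifs for the factors themselves, for STAT proteins or for POU factors such as OCT4. The sequences read 5′ to 3′ on the strand of the gene, and the capitals mark the motif:

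Klf2, chr8:72318836-72318884, plus strand, GC boxes: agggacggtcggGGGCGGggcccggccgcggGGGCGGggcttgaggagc

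Klf4, chr4:55532647-55532704, minus strand, GC boxes: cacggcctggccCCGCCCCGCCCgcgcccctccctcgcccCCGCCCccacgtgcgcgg

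Esrrb, chr12:86360927-86360959, plus strand, STAT motif: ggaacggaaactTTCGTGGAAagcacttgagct

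Tfcp2l1, chr1:118627872-118627917, plus strand, KLF motifs: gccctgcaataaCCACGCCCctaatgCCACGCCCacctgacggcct

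Zfp42, chr8:43307176-43307207, minus strand, octamer: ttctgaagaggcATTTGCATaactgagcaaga

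Zfp42, chr8:43307065-43307096, minus strand, KLF motif: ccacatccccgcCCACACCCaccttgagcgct

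The KLF motif (GGGNGTGG, both strands) was found in the windows of *Tfcp2l1*, at -61 to -54 and at -47 to -40 from the start site, and of *Zfp42*, at -75 to -68. It occurs in 17.6% of all 32851 promoter windows of this length. The octamer (ATTTGCAT), the site of OCT4-type POU factors, was found in *Zfp42* at -186 to -179 and occurs in 1.74% of windows. The STAT motif (TTCNNNGAA) was found in *Esrrb* at -178 to -170 and occurs in 8.30% of windows. *Esrrb* has a further start site, with a window that begins at chr12:86421394, and that window held none of the motifs searched for. GC boxes (GGGCGG), the sites of SP and KLF proteins, were found in *Klf2*, *Klf4* and *Zfp42* and occur in 35.7% of windows. In *Zfp42* one GC box, at -79 to -74, overlaps the KLF motif. None of the 6 windows of these 5 genes held the letters searched for ESRRB (TCAAGGTCA or AAGGTCA), TFCP2L1 (its paired half-sites), T-box factors (AGGTGTGA), TCF/LEF (CTTTGNT) or YY1-type factors (AANATGGC), which says only that these letters are not there. The *Klf4* and *Klf2* windows were rich in G and C, at 74.3% and 69.3%, which is above 95.6% and 89.5% of all windows.

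In ESCs the factors were among the abundant transcripts. Ranked by TPM (transcripts scaled by length and library size) among 21596 protein-coding genes, *Klf2*, *Klf4*, *Esrrb* and *Tfcp2l1* stood between rank 167 and rank 213 in both tcESC libraries. Their mean levels in tcESCs were 606 ± 23.8 TPM for *Klf2*, 592 ± 37.9 TPM for *Tfcp2l1*, 589 ± 15.7 TPM for *Klf4* and 554 ± 12.9 TPM for *Esrrb* (SD, n = 2), and the first 3 overlapped between libraries. *Zfp42* (293 ± 4.33 TPM), *Tbx3* (216 ± 5.53 TPM) and *Klf5* (107 ± 1.20 TPM) followed in that order without overlap. In tc;Sf1ESCs the order was *Klf2*, *Tfcp2l1*, *Esrrb*, *Zfp42*, *Klf4*, *Tbx3* and *Klf5*, with no overlap between neighbours. In SCLCs it was *Klf4* (342 ± 2.47 TPM), *Zfp42* (141 ± 14.9 TPM) and then *Klf5*, *Klf2*, *Tbx3*, *Esrrb* and *Tfcp2l1*, each of which overlapped with its neighbour. In tod-PGCLCs *Zfp42* led (491 ± 8.89 TPM), followed by *Klf2* (456 ± 2.67 TPM), *Esrrb* (293 ± 15.3 TPM), *Tfcp2l1*, *Klf5*, *Klf4* and *Tbx3* (21.5 ± 3.41 TPM), again with no overlap. These orders depend in part on the length used, here that of all exons of a gene merged. With the length of the longest transcript, *Esrrb* led in tcESCs (592 ± 14.4 TPM) and stood above *Tfcp2l1* in tc;Sf1ESCs (504 against 423 TPM), *Klf5* and *Zfp42* overlapped in SCLCs (means of 111 and 110.2 TPM) with *Tbx3* next, and *Klf5* stood above *Tfcp2l1* in tod-PGCLCs (106 against 85.6 TPM).

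**Figure D1:**
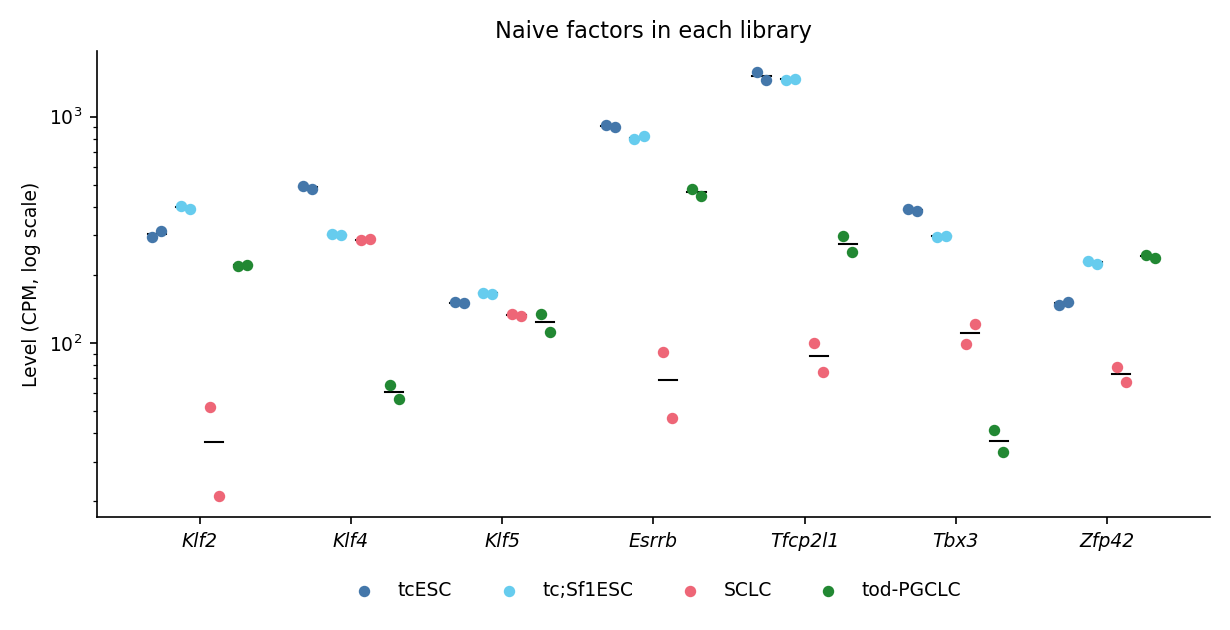
Level of each of the 7 factors in each of the 8 libraries, in CPM on a log axis, with 1 point per library and a short bar at the mean of the group. The 2 SCLC points lie apart for *Klf2* (52.4 and 21.1 CPM), lie on the tc;Sf1ESC level for *Klf4*, and the tod-PGCLC points are the lowest for *Klf4* and *Tbx3*.

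*Klf2* stood at 293 and 314 CPM in the 2 tcESC libraries, 404 and 392 CPM in tc;Sf1ESCs, 52.4 and 21.1 CPM in SCLCs, and 219 and 222 CPM in tod-PGCLCs. No 2 groups overlapped. The SCLC libraries were the lowest, and the first of them was 2.48 times the second, the widest gap between duplicates of any of the 7 factors.

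*Klf4* stood at 493 and 481 CPM in tcESCs, 303 and 299 CPM in tc;Sf1ESCs, 285 and 288 CPM in SCLCs, and 65.1 and 56.8 CPM in tod-PGCLCs. The SCLC and tc;Sf1ESC libraries stood side by side without overlap, and the tod-PGCLCs were far below all the others.

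*Klf5* was the flattest, at 151 and 151 CPM in tcESCs, 166 and 165 CPM in tc;Sf1ESCs, 135 and 132 CPM in SCLCs, and 135 and 112 CPM in tod-PGCLCs. The SCLC and tod-PGCLC libraries overlapped, and both ESC groups were higher than either.

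*Esrrb* stood at 918 and 900 CPM in tcESCs, 797 and 820 CPM in tc;Sf1ESCs, 91.4 and 46.8 CPM in SCLCs, and 480 and 448 CPM in tod-PGCLCs. The 4 groups were separate, with tod-PGCLCs between ESCs and SCLCs, and the SCLC libraries apart from each other by 1.95 times.

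*Tfcp2l1*, the most counted of the 7 in ESCs, stood at 1576 and 1458 CPM in tcESCs, 1458 and 1470 CPM in tc;Sf1ESCs, 99.98 and 74.9 CPM in SCLCs, and 298 and 252 CPM in tod-PGCLCs. The ESC groups overlapped, and every SCLC and tod-PGCLC library was well below them.

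*Tbx3* stood at 393 and 384 CPM in tcESCs, 294 and 298 CPM in tc;Sf1ESCs, 99.2 and 122 CPM in SCLCs, and 41.3 and 33.1 CPM in tod-PGCLCs. The groups came in that order without overlap, and here the second SCLC library was the higher.

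*Zfp42* stood at 147 and 152 CPM in tcESCs, 232 and 223 CPM in tc;Sf1ESCs, 78.4 and 67.4 CPM in SCLCs, and 244 and 239 CPM in tod-PGCLCs. It was the only one of the 7 whose highest libraries were those of tod-PGCLCs, and no groups overlapped.

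The first comparison asked how the *Sf1* clone differed from its parental line before differentiation. Genes were called when they differed over 2-fold at an adjusted p under 0.05 in edgeR's quasi-likelihood test, the p-values being adjusted by the Benjamini-Hochberg method across every gene tested. None of the 7 was called between tc;Sf1ESCs and tcESCs, where 11.7% of the 16481 genes tested were (6.04% higher and 5.63% lower), and none was called by DESeq2 either. The 1923 genes behind that share were 1119 to 1240 when any 1 of the 4 ESC libraries was left out. The median over the 7 was -0.05 on the log2 scale. An unadjusted p under 0.05 was reached by 4 of the 7, and an adjusted p under 0.05 at less than 2-fold by 3: *Klf4* had a log2 fold change of -0.70 (SE 0.0559, adjusted p = 0.000295), *Tbx3* one of -0.39 (SE 0.0936, adjusted p = 0.0181) and *Zfp42* one of 0.60 (SE 0.0815, adjusted p = 0.00194). *Klf2* had a log2 fold change of 0.39, the 95% interval running from -0.38 to 1.16 (adjusted p = 0.407). These p-values depend on the filter and on the libraries that share the estimate of the spread. With every gene of at least 1 count kept, *Klf2* had an adjusted p of 2.72e-05. In the 4 ESC libraries alone, *Klf2* (0.38, adjusted p = 1.40e-09), *Esrrb* (-0.17, adjusted p = 0.000175) and *Klf5* (0.13, adjusted p = 0.00840) also had an adjusted p under 0.05 at less than 2-fold, and without any 1 of the ESC libraries *Tbx3* no longer did (adjusted p = 0.102 to 0.130). *Klf2* and *Zfp42* both lie on chromosome 8, where the median log2 fold change of 864 genes between these lines was 0.47, against medians between -0.02 and 0.01 on the other chromosomes that carry members. Measured from that median, *Klf2* stood at -0.09 and *Zfp42* at 0.13. Whether the shift of the whole chromosome has a part in their higher values in the clone was not tested.

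In SCLCs 5 of the 7 factors were lower than in ESCs, and *Klf4* and *Klf5* stood near the level of the line they came from. Against tc;Sf1ESCs, the line from which the SCLCs were made, *Tfcp2l1*, *Esrrb*, *Klf2*, *Zfp42* and *Tbx3* were called lower, in a comparison where 18.1% of all genes tested were called lower, 24.1% higher and 42.2% called in either direction. The median over the 7 was -1.64 on the log2 scale, against 0.02 over all genes. *Tfcp2l1* fell 16.7-fold (log2 fold change -4.06, SE 0.144, adjusted p = 7.44e-07), *Esrrb* 11.7-fold (-3.54, SE 0.282, adjusted p = 2.66e-05) and *Klf2* 10.8-fold (-3.43, SE 0.364, adjusted p = 0.000112). *Zfp42* fell 3.11-fold (-1.64, SE 0.0840, adjusted p = 3.33e-06) and *Tbx3* 2.67-fold (-1.42, SE 0.0961, adjusted p = 1.22e-05). *Klf4* had a log2 fold change of -0.07, the 95% interval running from -0.20 to 0.07 (adjusted p = 0.312), so that a change of 2-fold in either direction lay outside the interval. *Klf5* had a log2 fold change of -0.30, the 95% interval running from -0.44 to -0.17 (adjusted p = 0.00181), which is 1.24-fold lower and under the 2-fold threshold. The value of *Klf2* depended on the library, with a log2 fold change of -4.22 without the first SCLC library and -2.92 without the second.

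**Figure D2:**
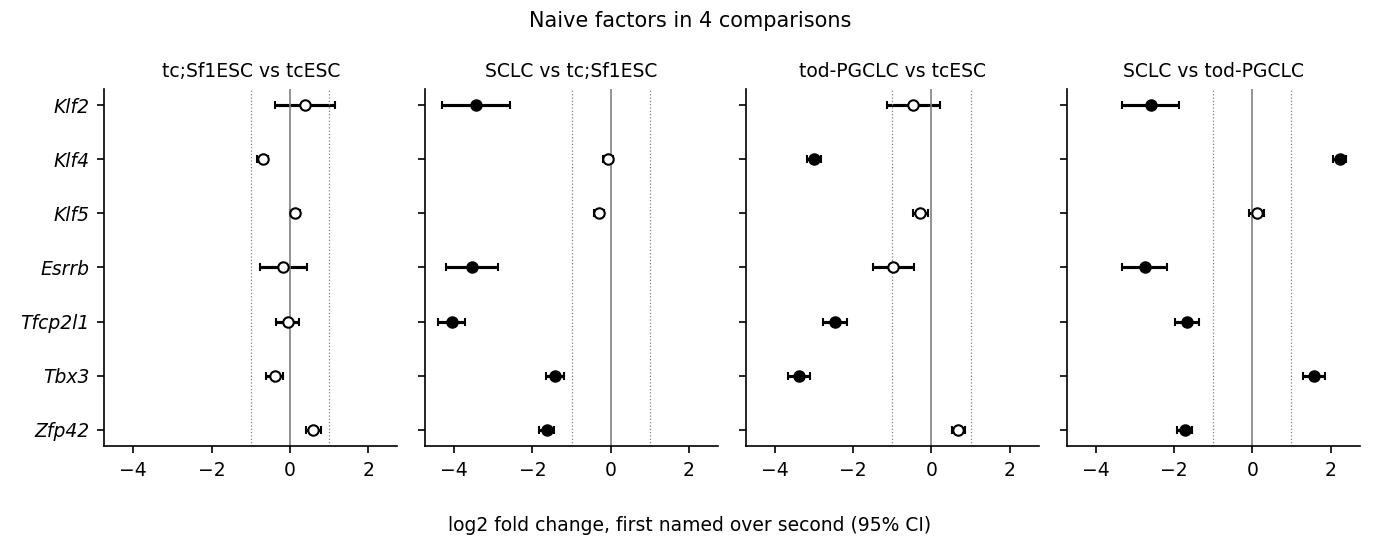
Log2 fold change of each factor, with its 95% confidence interval, in 4 comparisons. Filled points were called (over 2-fold, adjusted p under 0.05), open points were not, and dotted lines mark 2-fold. *Klf4* and *Tbx3* are higher and *Klf2*, *Esrrb*, *Tfcp2l1* and *Zfp42* lower in SCLCs than in tod-PGCLCs, whereas *Klf5* stays near 0 in all 4 panels.

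Against tcESCs the same 5 factors were called lower in SCLCs, with 18.3% of genes called lower, 24.3% higher and 42.7% in either direction. This comparison and the previous one share the SCLC libraries. *Tfcp2l1* had a log2 fold change of -4.11, *Esrrb* of -3.72, *Klf2* of -3.05 and *Tbx3* of -1.81. *Zfp42* was at the edge, with a log2 fold change of -1.04 (2.05-fold lower, SE 0.0832, adjusted p = 2.78e-05), and it was not called without the second SCLC library (-0.93) or when the test was made against a 2-fold change (adjusted p = 0.360). On chromosome 8, which carries it, the median gene was shifted by 0.58 in this comparison. *Klf4* was 1.70-fold lower than in tcESCs (log2 fold change -0.76, SE 0.0560, adjusted p = 1.76e-05); the tc;Sf1ESCs were themselves 1.62-fold lower than tcESCs. *Klf2* had a log2 fold change of -3.83 without the first SCLC library.

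As a share of the tc;Sf1ESC mean, *Klf4* was left at 94.7% and 95.5% in the 2 SCLC libraries and *Klf5* at 81.5% and 79.8%. *Zfp42* was left at 34.5% and 29.7% and *Tbx3* at 33.5% and 41.0%. *Klf2* was left at 13.2% and 5.30%, *Esrrb* at 11.3% and 5.79%, and *Tfcp2l1* at 6.83% and 5.12%. Among the core ESC genes measured beside them, *Nanog* was left at 10.3% and 3.17%, *Sox2* at 17.1% and 5.96%, and *Pou5f1* (which encodes OCT4) at 24.5% and 16.1%, so that the first SCLC library held more of each. *Klf2*, *Esrrb*, *Tfcp2l1* and *Zfp42* were higher in the first SCLC library too, by 1.16 to 2.48 times. *Klf4* and *Klf5* differed by only 1.01 and 1.02 times, and *Tbx3* was higher in the second. The part of undifferentiated cells among the sorted cells in these levels was not tested. Other ESC genes were left at higher shares, with *Sall4* at 84.7% and 75.7%, *Dppa2* at 82.7% and 74.4%, *Mycn* at 69.9% and 47.1% and *Utf1* at 90.9% and 37.5%, so that *Klf4* and *Klf5* were not alone in this.

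**Figure D3:**
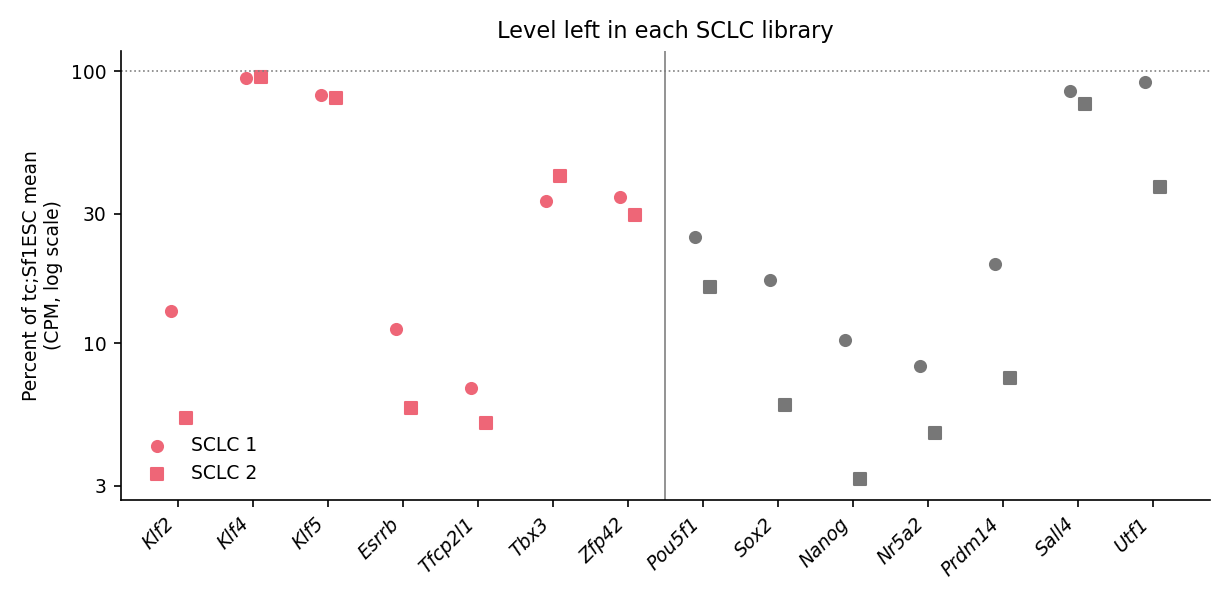
Level in each SCLC library as a percent of the mean of the 2 tc;Sf1ESC libraries, on a log axis, for the 7 factors (red, left of the line) and for 7 other ESC genes (grey). Circles are the first and squares the second SCLC library, and *Klf4* lies at 94.7% and 95.5% while *Nanog* lies at 10.3% and 3.17%.

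In tod-PGCLCs 3 of the 7 factors were called lower than in either ESC line, of which *Tbx3* and *Tfcp2l1* were also called lower in SCLCs and *Klf4* was not. Against tcESCs, *Tbx3*, *Klf4* and *Tfcp2l1* were called lower, where 11.2% of 16707 genes tested were called lower, 18.1% higher and 29.4% in either direction. The median over the 7 was -0.97 on the log2 scale, against 0.03 over all genes. *Tbx3* fell 10.4-fold (log2 fold change -3.38, SE 0.127, adjusted p = 3.46e-07), *Klf4* 7.99-fold (-2.999, SE 0.0783, adjusted p = 6.20e-08) and *Tfcp2l1* 5.51-fold (-2.46, SE 0.136, adjusted p = 1.95e-06). *Esrrb* had a log2 fold change of -0.97 (SE 0.232, adjusted p = 0.00599), which is 1.96-fold lower and just inside the threshold, and it was called when either tcESC library, either tc;Sf1ESC library or the first tod-PGCLC library was left out, with values from -1.002 to -1.03. *Zfp42* was 1.61-fold higher (log2 fold change 0.69, SE 0.0773, adjusted p = 8.69e-05), under the threshold, while the median gene of chromosome 8 was shifted by -0.03. *Klf2* had a log2 fold change of -0.46, the 95% interval running from -1.13 to 0.21 (adjusted p = 0.201, against 8.14e-05 in the 4 libraries compared alone), and *Klf5* one of -0.29 (SE 0.0839, adjusted p = 0.0151).

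Against tc;Sf1ESCs, which share the tod-PGCLC libraries with the comparison above, *Tbx3* (log2 fold change -2.99), *Tfcp2l1* (-2.41) and *Klf4* (-2.30) were called lower, where 13.3% of genes were called lower, 19.4% higher and 32.7% in either direction. The adjusted p was at most 1.75e-06 for these 3. *Zfp42* had a log2 fold change of 0.09, the 95% interval running from -0.09 to 0.26 (adjusted p = 0.350), in a comparison where the median of chromosome 8 stood at -0.54. *Klf2* (-0.85, adjusted p = 0.0311), *Esrrb* (-0.80, adjusted p = 0.0140) and *Klf5* (-0.42, adjusted p = 0.00198) were all under the 2-fold threshold. The adjusted p of *Klf2* was 0.0778 in DESeq2 and 0.0577 to 0.1235 in 6 fits with 1 of the tcESC, tc;Sf1ESC or tod-PGCLC libraries left out, and that of *Esrrb* was 0.0530 to 0.0844 without the second tc;Sf1ESC or either tod-PGCLC library.

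Setting the differentiated groups side by side, 6 of the 7 factors were called, with 38.0% of all genes called, 19.5% higher and 18.5% lower. *Klf4* was 4.70-fold higher in SCLCs than in tod-PGCLCs (log2 fold change 2.23, SE 0.0763, adjusted p = 9.92e-08) and *Tbx3* 2.97-fold higher (1.57, SE 0.122, adjusted p = 5.98e-06). The other 4 were lower in SCLCs: *Esrrb* by 6.72-fold (-2.75, SE 0.249, adjusted p = 1.51e-05), *Klf2* by 6.02-fold (-2.59, SE 0.320, adjusted p = 0.000102), *Zfp42* by 3.31-fold (-1.73, SE 0.0798, adjusted p = 3.85e-07) and *Tfcp2l1* by 3.15-fold (-1.65, SE 0.135, adjusted p = 8.02e-06). *Klf5* had a log2 fold change of 0.11, the 95% interval running from -0.08 to 0.30 (adjusted p = 0.256). The value of *Klf2* moved to -3.38 without the first SCLC library. Chromosome 8 was shifted by 0.54 in this comparison, in the direction opposite to that of *Klf2* and *Zfp42*.

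Within the Klf trio the composition turned over. Per length, the ratio of *Klf4* to *Klf2* was 1.02 and 0.928 in tcESCs, 0.454 and 0.463 in tc;Sf1ESCs, 3.30 and 8.26 in SCLCs, and 0.180 and 0.155 in tod-PGCLCs, so that the groups did not overlap. *Klf4* made up 63.2% and 71.9% of the summed level of the trio in SCLCs and 12.9% and 11.6% in tod-PGCLCs, where *Klf2* made up 71.5% and 74.9%. The ratio of *Esrrb* to *Tfcp2l1* per length lay between 0.854 and 0.963 in the 4 ESC libraries and at 2.52 and 2.77 in tod-PGCLCs, whereas in SCLCs it was 1.43 and 0.9753. With the length of the longest transcript, this ratio was 1.18 to 1.33 in ESCs, 3.48 and 3.82 in tod-PGCLCs and 1.97 and 1.35 in SCLCs, so that which of these genes is the higher in ESCs turns with the length. All 7 factors together summed to 2790 to 2988 TPM in ESCs, 839 and 733 TPM in SCLCs, and 1581 and 1500 TPM in tod-PGCLCs. *Zfp42* supplied 31.4% and 32.3% of that sum in tod-PGCLCs against 9.71% and 10.1% in tcESCs.

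**Figure D4:**
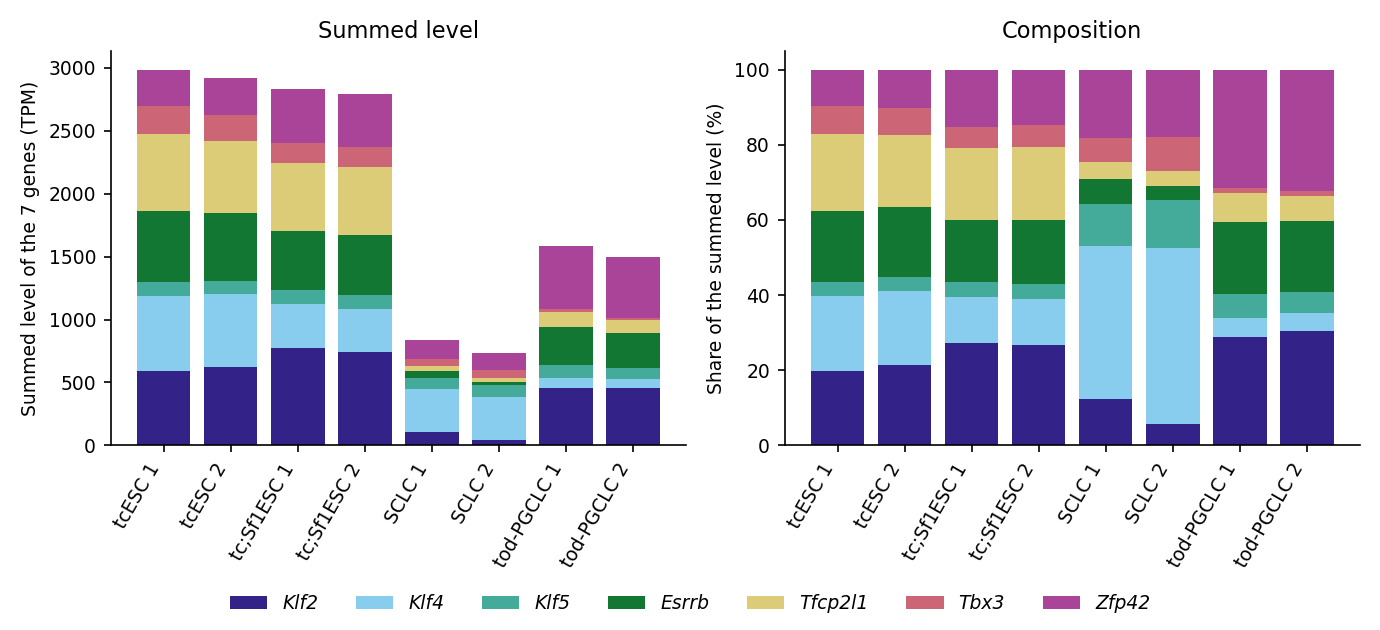
Summed level of the 7 factors in TPM, stacked by gene, in each library (left), and the same as shares of the sum (right). The sum is 839 and 733 TPM in SCLCs, where *Klf4* is the largest part, and 1581 and 1500 TPM in tod-PGCLCs, where *Zfp42* and *Klf2* are.

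The likeness of patterns was measured as the root mean square difference between log2 CPM values, each centred on its own mean over the 8 libraries. Among the factors, *Klf2* and *Esrrb* were the most alike (0.263), followed by *Klf4* and *Tbx3* (0.514) and by *Esrrb* and *Tfcp2l1* (0.654), whereas *Klf4* and *Esrrb* were the least alike (1.85). Of the protein-coding genes with a mean count above 10, the nearest to *Klf4* was *Tead4* (0.102), a TEAD factor of the trophectoderm, at 105 CPM in tcESCs, 68.4 CPM in tc;Sf1ESCs, 62.0 CPM in SCLCs and 14.7 CPM in tod-PGCLCs, followed by *Nynrin* and *Capn1*. The nearest to *Zfp42* was *Zfp219* (0.0612), a zinc-finger gene, followed by *Auts2* and *Manba*, and the nearest to *Klf5* were *Patl1* (0.0492), *Abhd4* and *Plekhg3*. *Esrrb* was followed most closely by *AI467606*, *Pir* and *Zfp980* (0.104 to 0.165), *Klf2* by *Nova1*, *Atp6v1c2* and *Gna15* (0.126 to 0.137), *Tfcp2l1* by *Sdc2*, *Slfn8* and *Saxo1* (0.196 to 0.213), and *Tbx3* by *Nefl*, *Vmn1r53* and *Zfp78* (0.255 to 0.285). Some of these neighbours were low, such as *Saxo1* at 0 CPM in SCLCs and *Vmn1r53* at 0.230 CPM in tod-PGCLCs. These points are 8 libraries that share 4 groups, and the list is a description.

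Other genes of the naive state were read beside the 7. Of 16 such genes, 10 fell in SCLCs against tc;Sf1ESCs, with a median log2 fold change of -2.98 against 0.02 over all genes, of which 18.1% were called lower. *Fgf4*, the ligand that ESCs themselves secrete, fell by 5.15 on the log2 scale (SE 0.458, adjusted p = 4.61e-05) and *Gbx2*, a homeobox factor downstream of STAT3, by 4.78 (SE 0.226, adjusted p = 2.31e-06). *Fgf4* stood at 13.3 and 3.56 CPM in the 2 SCLC libraries, so that the size of its fall, like that of *Nanog*, depended on the library. *Nanog* fell by 3.89 (SE 0.475, adjusted p = 0.000234) and the nuclear receptor gene *Nr5a2* by 3.95 (SE 0.219, adjusted p = 4.63e-06). In tod-PGCLCs against tcESCs, 4 of the 16 rose and 3 fell, with a median of -0.41 against 0.03 over all genes, of which 18.1% were called higher and 11.2% lower. *Dppa3*, a maternal factor that marks germ cells as well, rose by 2.66 on the log2 scale (SE 0.413, adjusted p = 0.000558) and *Dppa4* by 1.24 (SE 0.265, adjusted p = 0.00334), while *Fgf4* fell by 1.87 and *Tdh*, a threonine dehydrogenase of ESCs, by 1.71. *Nanog* had a log2 fold change of -0.64 there (adjusted p = 0.170) and *Nr5a2* one of -0.82 (adjusted p = 0.00269), neither of which was called.

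The LIF and STAT3 pathway is known to act upstream of *Klf4* and *Tfcp2l1*. Of 14 genes, 4 fell and 2 rose in tod-PGCLCs against tcESCs, with a median log2 fold change of -0.10 (all genes, 11.2% lower and 18.1% higher). *Socs3*, the feedback inhibitor that STAT3 induces, stood at 147 and 147 CPM in tcESCs, 148 and 150 CPM in tc;Sf1ESCs, 82.5 and 65.7 CPM in SCLCs, and 28.01 and 22.5 CPM in tod-PGCLCs. It fell by 2.54 on the log2 scale in tod-PGCLCs (SE 0.129, adjusted p = 1.23e-06), *Lifr*, a subunit of the LIF receptor, fell by 1.45 (SE 0.0806, adjusted p = 2.00e-06) and *Stat3* by 1.34 (SE 0.0763, adjusted p = 2.29e-06). *Bcl3* fell by 2.35, and the kinase genes *Pim1* and *Jak2* rose by 1.64 and 1.46. *Il6st*, which encodes the shared receptor subunit gp130, had a log2 fold change of 0.81 and was not called. In SCLCs 3 of the 14 fell and 2 rose against tc;Sf1ESCs, with a median of 0.23 (all genes, 18.1% lower and 24.1% higher), and 3 in place of 5 were called without the second SCLC library. *Lifr* had a log2 fold change of 0.67 and *Stat3* one of 0.33, neither called, and *Socs3* was at the threshold (-1.002, adjusted p = 0.000106). The genes that rose were *Jak2* and *Junb*, and those that fell were *Bcl3*, *Pim1* and *Socs3*. Against tcESCs, 1 of the 14 fell and 2 rose in SCLCs (all genes, 18.3% lower and 24.3% higher). *Pim1* depended on the ESC line, with means of 33.2 CPM in tcESCs, 69.9 CPM in tc;Sf1ESCs, 31.4 CPM in SCLCs and 104 CPM in tod-PGCLCs.

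Of 12 WNT and TCF genes, 4 fell and 1 rose in SCLCs against tc;Sf1ESCs, with a median log2 fold change of -0.36 (all genes, 18.1% lower and 24.1% higher). The β-catenin targets *Sp5* and *Axin2* fell by 7.17 (SE 0.177, adjusted p = 2.04e-07) and 3.59 (SE 0.103, adjusted p = 3.44e-07) on the log2 scale, and *Tcf7l2* rose by 2.37. In tod-PGCLCs against tcESCs 3 rose and 2 fell, with a median of -0.11 (all genes, 18.1% higher and 11.2% lower), and 3 in place of 5 were called without the first tod-PGCLC library. *Lef1* rose by 4.93 and *Nkd1* by 2.04, while *Tcf7l1*, the repressor of *Esrrb*, fell by 1.28 (SE 0.0874, adjusted p = 5.62e-06) and *Sp5* by 1.14. *Tcf7l1* was not called in SCLCs against tc;Sf1ESCs (log2 fold change -0.42), but these 2 results rest on different ESC lines. Its mean was 159 CPM in tcESCs, 101 CPM in tc;Sf1ESCs, 75.1 CPM in SCLCs and 65.5 CPM in tod-PGCLCs. In the clone against its parental line, 3 of the 12 were called higher and 0 lower (all genes, 6.04% higher and 5.63% lower), namely *Lef1*, *Sp5* and *Axin2*, by 4.33, 1.86 and 1.08. *Lef1* stood at a mean of 1.72 CPM in tcESCs, 34.8 CPM in tc;Sf1ESCs and 52.9 CPM in tod-PGCLCs.

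Of 18 FGF and ERK genes, 5 rose and 5 fell in SCLCs against tc;Sf1ESCs, and 7 rose and 1 fell in tod-PGCLCs against tcESCs, with medians of -0.22 and 0.46 on the log2 scale. Over all genes 24.1% were called higher and 18.1% lower in the former comparison, and 18.1% and 11.2% in the latter, so that the list in SCLCs stood near the background. MEK inhibitor was in the medium of both ESC lines. SCLCs and tod-PGCLCs were also dissociated with enzymes and sorted, so that medium, handling and cell state cannot be told apart here. *Egr1*, an immediate early gene, rose by 7.97 on the log2 scale in SCLCs (SE 0.178, adjusted p = 1.30e-07) and by 5.87 in tod-PGCLCs (SE 0.291, adjusted p = 1.06e-06), and the ERK phosphatase gene *Dusp4* rose by 4.65 in tod-PGCLCs. *Fos* rose by 4.96 in SCLCs. *Etv5* and *Spry2*, which FGF signalling is known to induce, fell by 2.72 and 2.06 in SCLCs. *Etv5* stood at 62.2 and 30.1 CPM in the SCLC libraries, so that the size of its fall depended on the library. *Myc* fell by 1.74 in tod-PGCLCs against tcESCs, from a mean of 21.4 CPM to one of 6.42 CPM, but it stood at only 9.72 CPM in tc;Sf1ESCs.

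The formative state follows the naive state in the epiblast. In tod-PGCLCs against tcESCs, 6 of the 14 rose and 1 fell, with a median log2 fold change of 0.61 against 0.03 over all genes (18.1% higher and 11.2% lower). *Otx2*, which opposes the naive network, rose by 4.57 (SE 0.175, adjusted p = 3.57e-07), from a mean of 2.88 CPM to one of 68.4 CPM, and *Fgf5* by 3.96 (SE 0.377, adjusted p = 3.53e-05), from 0.688 to 10.7 CPM. *Foxd3* fell by 2.04. In SCLCs against tc;Sf1ESCs, 13 of the 14 were tested, of which 8 fell and 3 rose, with a median of -1.53 (all genes, 18.1% lower and 24.1% higher). *Foxd3* fell by 5.85 and *Cdh2* by 3.18, and *Sox4*, *Pou3f1* and *Dnmt3a* rose by 2.92, 2.42 and 1.91. These 3 rose in tod-PGCLCs against tcESCs as well, by 1.63, 2.26 and 2.32, and *Foxd3* fell in both. In SCLCs against tod-PGCLCs, 10 of the 14 were called lower, with a median of -2.95 (all genes, 18.5% lower).

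The paralogues of the factors were counted last. Of the other 14 Klf genes, 13 were tested, and in SCLCs against tc;Sf1ESCs 3 rose and 3 fell, with a median of 0.35, near the shares over all genes (24.1% higher and 18.1% lower). *Klf6* stood at 42.0 and 40.8 CPM in tcESCs, 76.7 and 75.0 CPM in tc;Sf1ESCs, 351 and 352 CPM in SCLCs, and 65.9 and 62.7 CPM in tod-PGCLCs. It rose by 2.22 on the log2 scale in SCLCs (SE 0.0584, adjusted p = 2.51e-07), and *Klf11* rose by 2.01, while *Klf12* and *Klf3* fell by 2.91 and 1.77. In tod-PGCLCs against tcESCs 1 of the 13 rose and 2 fell, where 18.1% of all genes were called higher and 11.2% lower. *Klf17* rose by 2.95, at a low level of 1.13 CPM, and *Klf15* and *Klf8* fell by 1.41 and 1.26. Of the 7 paralogues of the other factors, 5 were tested. *Tbx2*, the nearest relative of *Tbx3*, and *Esrra*, a relative of *Esrrb*, rose in SCLCs against tc;Sf1ESCs by 2.76 and 1.24, with *Tbx2* at 2.44 CPM. Against tcESCs neither was called in SCLCs, *Tbx2* having a log2 fold change of 0.76 (adjusted p = 0.0471) and *Esrra* one of 0.42 (adjusted p = 0.0243), and both were lower in tc;Sf1ESCs (0.355 and 13.7 CPM) than in tcESCs (1.45 and 24.0 CPM). *Ubp1* and *Tfcp2*, relatives of *Tfcp2l1*, were not called in that comparison.

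**Figure D5:**
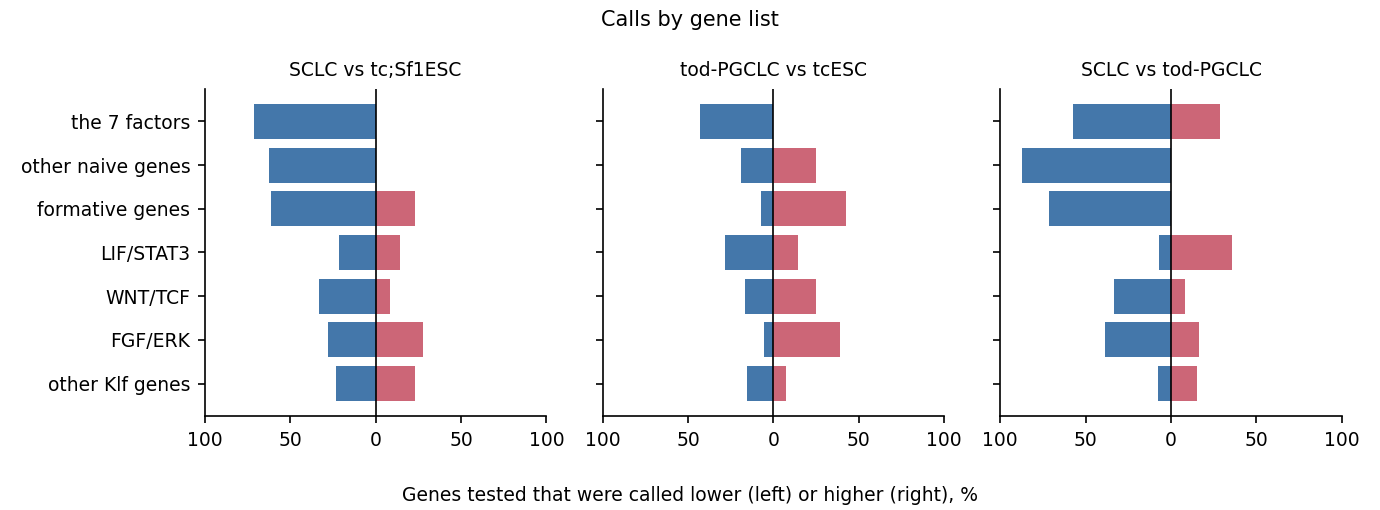
Percent of the tested genes of each list that were called lower (blue, to the left) or higher (red, to the right) in 3 comparisons. Of the naive genes other than the 7 factors, 10 of 16 are lower in SCLCs than in tc;Sf1ESCs, and of the formative genes 6 of 14 are higher in tod-PGCLCs than in tcESCs.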

How the data were processed

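RNA from 8 libraries (poly(A)-selected, strand-specific, paired-end) was sequenced for the authors by a commercial service. Per the labels and the study's methods, reads were trimmed with Trim Galore, aligned to GRCm38 with STAR 2.4.0 and counted with HTSeq. The deposited values are raw counts per Ensembl gene identifier, of which 45229 of 46078 were matched to symbols in GENCODE M21. The annotation version and strand setting of the counting are not given in the sources used here, so antisense reads cannot be told apart. Rows that name no gene were left out: of all read pairs or alignments tallied, 20.5 to 27.5% were not unique, 6.45 to 8.32% hit no feature, 2.97 to 3.15% were ambiguous and 2.38 to 5.00% were not aligned.

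Here, genes with a mean count above 10 were fitted with edgeR 4.0.16 (TMM, quasi-likelihood test, Benjamini-Hochberg adjustment, R 4.3.3), in 6 libraries for the ESC and SCLC comparisons and in 8 for those with tod-PGCLCs. A call needed over 2-fold and an adjusted p under 0.05. CPM values are TMM-scaled, TPM values used merged exon lengths, and likeness of patterns used a prior count of 2. DESeq2 1.42.0, other scalings, filters and subsets were alternatives. Scripts were tested on simulated data. The genes named from each list were the 7 factors, up to 2 called genes per direction with the largest change, *Stat3*, *Socs3*, *Lifr*, *Il6st*, *Tcf7l1*, *Nanog* and *Nr5a2*, and the 3 nearest patterns per factor; others were named for context after their values were seen. Members, lists and motifs were chosen with earlier results of these data known. The series calls the libraries biological duplicates, but nothing says whether they came from separate cultures, so p-values measure the spread between these samples, which may be technical. Same-numbered libraries did not deviate together (correlations of -0.03 to 0.06) and were not paired.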

Additional observations from a re-analysis of the deposited data

How the results depend on the processing

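The number of factors called stayed within 1.5 times its value in all 99 refits of the 6 comparisons, and leaving out 1 library moved it in 2 of them: 4 to 5 for SCLCs against tcESCs and 3 to 4 for tod-PGCLCs against tcESCs. Of 693 refitted fold changes of the factors, 683 kept their direction and their call (over 2-fold and adjusted p under 0.05 together). Those that did not were *Zfp42* in SCLCs against tcESCs (-1.04, with an adjusted p of 0.360 against a 2-fold change, and -0.93 without the second SCLC library), *Esrrb* in tod-PGCLCs against tcESCs (called at -1.002 to -1.03 without 1 of 5 libraries), and 2 factors near 0 that changed sign and were never called: *Tfcp2l1* in tc;Sf1ESCs against tcESCs (-0.11 to 0.0025 with 1 library left out, the highest without the first tcESC library), and *Klf5* in SCLCs against tod-PGCLCs (-0.0201 with library totals only, and -0.0183 to 0.242 with 1 library left out). The cause was not tested. Library totals in place of TMM moved the median of all genes by -0.13 on the log2 scale in SCLCs against tod-PGCLCs, and by less than 0.1 in the other 5 comparisons. The adjusted p alone, at less than 2-fold, crossed 0.05 in 36 of 651 refits, the test against a 2-fold change left aside, for *Klf2*, *Klf5*, *Esrrb* or *Tbx3*. With a replicate block, 0, 5, 5, 3, 3 and 6 factors were called in the 6 comparisons in the order given above, the same as without it; the replicate numbers do not pair the samples. Tested against a 2-fold change, the genes called between tc;Sf1ESCs and tcESCs fell from 1923 to 594 and those between tod-PGCLCs and tcESCs from 4906 to 3078, and without 1 of the ESC libraries the former numbered 1119 to 1240. Of 693 refitted counts for the gene lists, 31 moved by over 1.5 times or to or from 0. Among those printed above, the test against a 2-fold change gave 3 in place of 5 for LIF and STAT3 genes and 1 in place of 2 for the paralogues of the non-Klf factors in SCLCs against tc;Sf1ESCs, and 4 in place of 7 for the other naive genes and 3 in place of 5 for WNT genes in tod-PGCLCs against tcESCs. A prior count of 0.25 kept 2 or 3 of the 3 nearest patterns of each factor. Lengths of the longest transcript instead of merged exons moved 23 of 28 mean levels per length by more than 1 SD. Each group had 2 libraries, and no factor had fewer than 587 counts in any of them; the part of depth in the precision was not tested.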
